A study of Mus musculus with 6 samples.

Results

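A set of 49 protein-coding genes was higher in mouse thymus DN1a/b cells of the RBPJ uninduced group than in Control, and remained above Control when RBPJ had been induced for 6 days. The members were chosen by their measured levels, in CPM, the count divided by the file total and multiplied by 1000000. Both uninduced libraries had to hold at least 5 CPM and at least 3 times the higher Control. Both induced libraries had to hold at least 2 times the higher Control and at least 0.5 of the lower uninduced library. Of 21697 protein-coding genes among the 47729 genes measured, 56 met these limits. Of these, 7 were left out by name (Gata1, Gata2, Tal1, Car2, Tfr2, Mfsd2b and Ms4a2), as were 11 other named genes that did not meet them. Because the choice used all 6 libraries and all 3 contrasts between the groups, the levels below are descriptions and carry no test. High stands here for a level above Control: in 43 of the 49 genes the induced mean was below the uninduced mean.

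RNA was sequenced from sorted DN1a/b cells of C57BL/6 mice in 6 libraries. Control, RBPJ uninduced and RBPJ 6 days induced animals gave 2 libraries each. The uninduced and induced groups are RBPJ deficient per the labels, and in the induced group its expression was switched on with doxycycline, injected at 2 mg/ml and then supplied at 1 mg/ml in the drinking water. The sources used here do not say whether the other groups received doxycycline, how RBPJ was removed, what drives the inducible copy, how old the mice were or whether libraries hold pooled or separate mice. In the induced group the restored RBPJ and the drug itself cannot be told apart, and any p-value measures the spread between libraries, which may be technical.

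RBPJ is the DNA-binding protein through which cleaved Notch receptors switch on their targets, and in the thymus Notch signalling directs incoming progenitors to the T lineage. Without that signal, early thymic progenitors are known to keep or take up other fates, among them B, myeloid, dendritic and mast cell fates. DN1a/b cells are the Kit-positive fraction of the earliest CD4- CD8- thymocytes, so genes of granulocytes, mast cells, red cells and megakaryocytes mark fates outside the T lineage.

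The libraries held 5098927 to 12932928 counts, with the lowest depths in RBPJ uninduced replicate 1 and Control replicate 2 (5311391). Rbpj itself was at 75.2 and 77.6 CPM in Control, 31.8 and 24.6 CPM in uninduced and 202 and 194 CPM in induced libraries, so that transcript counts remained in the group labelled deficient. Both induced libraries were above Control. Whether the remaining transcripts were intact cannot be read from gene counts. Replicates stood furthest apart in the uninduced group, where chi-square per degree of freedom was 63.8 against 20.8 in Control and 18.5 in the induced group. Of genes expected in DN1a/b cells, Kit was between 327 and 711 CPM and Cd24a between 128 and 224 CPM across the libraries. Cd44 was at 224 and 161 CPM in the uninduced libraries against 293 to 396 CPM in the others. Ptprc, the leukocyte surface protein CD45, was at 283 CPM in both uninduced libraries against 599 to 715 CPM in the others. In edgeR's test Ptprc and Cd44 were lower in uninduced vs Control (log2 fold changes -1.16 and -0.89, adjusted p = 0.00956 and 0.0188). Ptprc was higher in induced vs uninduced (1.04, adjusted p = 0.0290). Il2ra, which marks the next thymocyte stage, was between 0.588 and 36.7 CPM. Some T lineage genes differed between the Control libraries. Cd4, Cd8a and Bcl11b were at 65.5, 85.1 and 140 CPM in Control replicate 2. In Control replicate 1 they were at 5.49, 3.25 and 5.18 CPM, and in the uninduced and induced libraries between 1.26 and 11.7 CPM. Lck (116 and 120 CPM) and Tox (166 and 137 CPM) were closer between Control replicates 1 and 2. The part of later thymocytes in the Control levels was not tested.

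Together the 49 genes made up 188 and 294 CPM in the Control libraries, 2330 and 2087 CPM in the uninduced libraries and 1410 and 1407 CPM in the induced libraries. The median member was at 2.24 and 3.58 CPM in Control, 30.8 and 21.7 CPM uninduced and 14.2 and 18.7 CPM induced. For the median member, the uninduced mean was 9.44 times and the induced mean 5.97 times the Control mean, over the 48 genes with Control counts. The median ratio of induced to uninduced means was 0.607. In bulk samples such as these, fewer cells of a type and less RNA per cell cannot be told apart.

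All 49 genes passed the low-count filter and were among the 18174 genes fitted with edgeR's quasi-likelihood test. Between uninduced and Control libraries 46 members were called higher at a Benjamini-Hochberg adjusted p of 0.05, where 2.49% of all genes tested were. None was called lower, against 2.93% of all genes, nor was any lower at an unadjusted p of 0.05 or by DESeq2. Grb10, Mmp14 and Ly6c2 were not called, and each had 0 counts in 1 Control library. The rule used this contrast, so nothing is read from the count. In the fit of only the 4 libraries compared 19 members were called higher, and without Control replicate 1 the count was 30.

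Between induced and Control libraries 11 members were called higher: Apoe, Rab44, Asph, Adgrl2, Arap3, Tjp1, Samd14, Pcdh7, Ms4a6c, Naip5 and Zg16. The share over all genes was 0.187%, that is 34 genes, of which 7 were among the genes left out by name and 16 were neither. All 49 members had an unadjusted p under 0.05 in this contrast, which again was part of the rule, and DESeq2 called 32 of them. Of the 11 calls, 6 were lost under an alternative. Those for Naip5 and Tjp1 were lost without either Control library, and that for Naip5 also with 2 other size factors. Those for Asph, Samd14 and Zg16 were lost without Control replicate 1, and that for Ms4a6c without Control replicate 2. No member was called lower by edgeR, at an unadjusted p of 0.05 or by DESeq2, and over all genes 0% were by edgeR (0 genes, with 281 at an unadjusted p of 0.05 and 49 by DESeq2). Leaving out a library moved the count of members called higher to 7 without Control replicate 1, to 40 and 37 without uninduced replicates 1 and 2, and to 22 and 21 without induced replicates 1 and 2.

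Between induced and uninduced libraries edgeR called no member in either direction, where 1.55% of all genes were called higher and 0.413% lower. At an unadjusted p of 0.05, 12 members were lower and 0 higher, and DESeq2 called 2 lower and 0 higher. Leaving out uninduced replicate 1 gave 9 members called lower, and leaving out uninduced replicate 2 gave 3. Both induced libraries were below both uninduced libraries for 23 members, against 19.3% of all genes tested. Both were above for 1 member, Naip6, against 25.2% of all genes. The rule sets a lower limit on the induced level, so these counts too describe the chosen genes only. The median log2 fold change of the members was 3.36 for uninduced vs Control, 2.72 for induced vs Control and -0.69 for induced vs uninduced, where the medians of all genes tested were -0.02, -0.02 and -0.03.

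**Figure D1:**
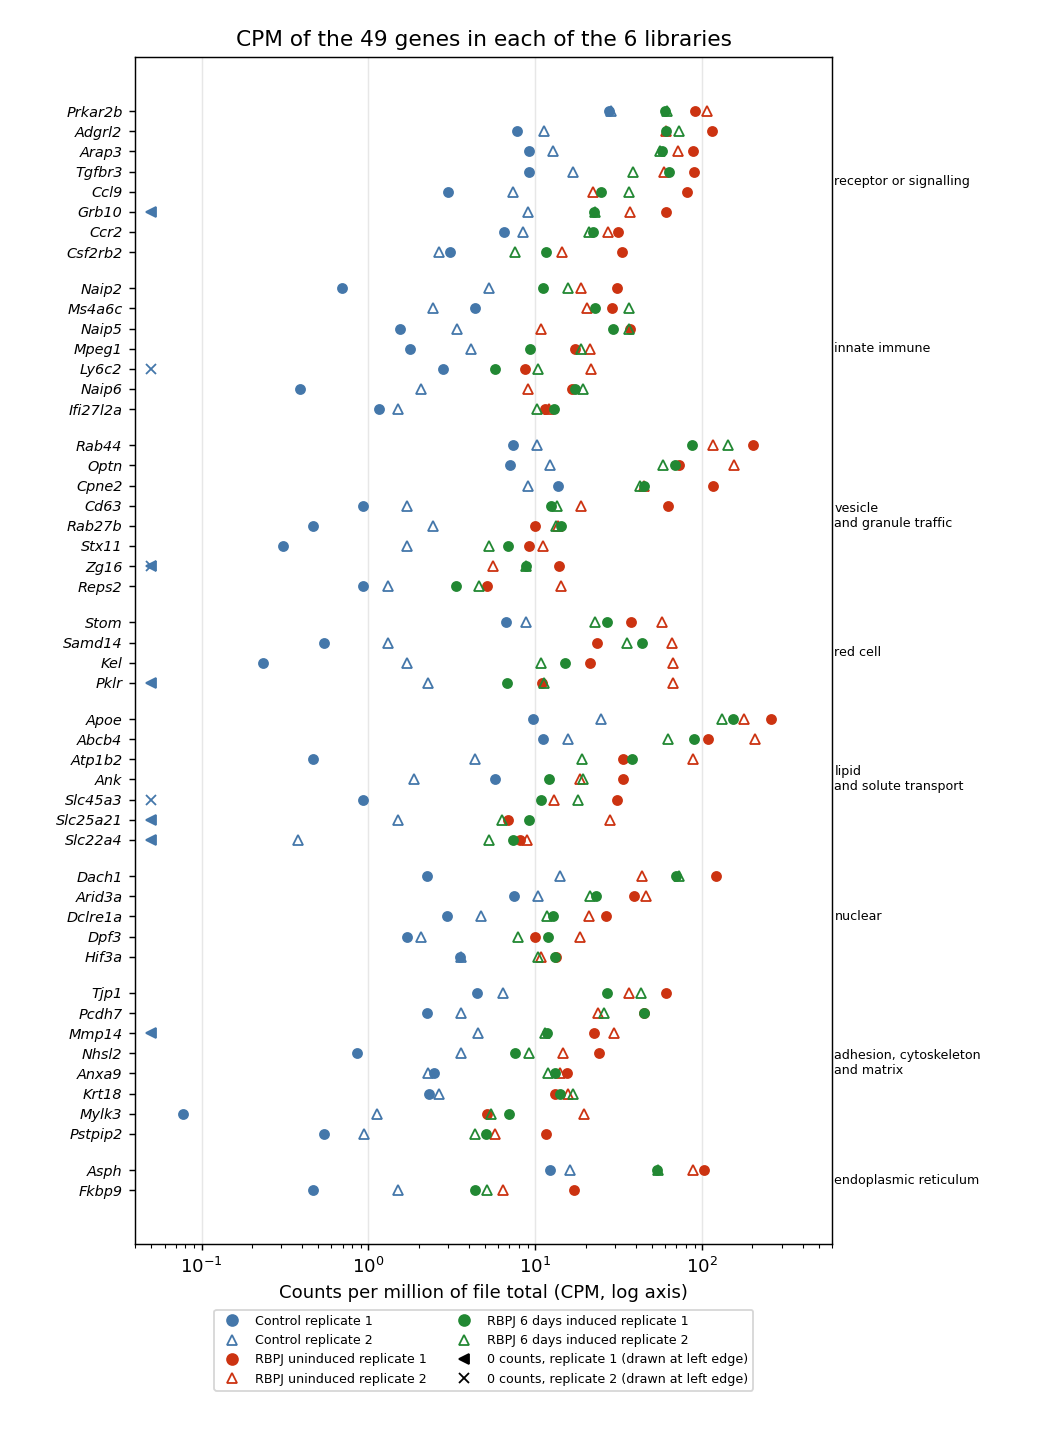
CPM of each of the 49 genes (rows, grouped by role) in the 6 libraries on a log axis; circles are replicate 1, triangles replicate 2, and marks at the left edge are libraries with 0 counts. The Control marks lie left of the uninduced and induced marks in every row, as the rule requires, and 8 rows have a Control library with 0 counts.

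Receptors and signalling proteins formed a group of 8 genes, of which 7 were called higher in uninduced vs Control and 2 in induced vs Control. In these contrasts 46 and 11 of the 49 members were called higher, against 2.49% and 0.187% of all genes tested. The rule used both contrasts, so nothing is read from the counts by role, here or below. Csf2rb2 (ENSMUSG00000071714, GRCm38 chromosome 15, 78282507 to 78305721, minus strand) encodes the beta chain of the mouse interleukin-3 receptor. It was at 3.09 and 2.64 CPM in Control, 32.9 and 14.4 CPM uninduced and 11.5 and 7.56 CPM induced. Its induced mean was 0.404 of the uninduced mean, among the lowest of the set, and the groups did not overlap. The neighbouring gene Csf2rb, the common beta chain for interleukin-3, interleukin-5 and GM-CSF, is not a member; it was at 23.3 and 21.1 CPM in Control, 165 and 39.6 CPM uninduced and 53.0 and 54.1 CPM induced. The genes share sequence: 18.9% of the 50-base runs of the Csf2rb2 transcripts also occur in another gene, mainly Csf2rb, so reads may have been split between them.

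Ccr2, the receptor for monocyte chemoattractant proteins, was at 6.495 and 8.47 CPM in Control, 31.4 and 27.4 CPM uninduced and 22.1 and 20.9 CPM induced. The pairs of Ccr2 libraries were close, and the groups stood in steps. Ccl9, a chemokine of myeloid cells, was at 3.02 and 7.34 CPM in Control, 80.6 and 22.3 CPM uninduced and 24.6 and 36.5 CPM induced. For Ccl9 the uninduced libraries differed most, and uninduced replicate 2 was below both induced libraries. Adgrl2, an adhesion G protein-coupled receptor of the latrophilin family, was at 7.73 and 11.3 CPM in Control, 114 and 60.4 CPM uninduced and 61.0 and 72.5 CPM induced. Both uninduced libraries were above Control for Adgrl2. Replicate 1 was the highest of all libraries, and replicate 2 was close to the lower induced library.

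Prkar2b, a regulatory subunit of cyclic AMP-dependent protein kinase, had the highest Control level of the set after correction for length but for Apoe, at 7.65 CPM per kb of exon. It was at 27.6 and 28.2 CPM in Control, 90.02 and 107 CPM uninduced and 60.2 and 61.3 CPM induced, with no overlap between the groups. Arap3, a GTPase-activating protein that binds membrane phosphoinositides, was at 9.12 and 12.8 CPM, 88.3 and 71.8 CPM, and 57.7 and 55.6 CPM in the same order. Both had closely matched induced libraries below both uninduced ones. Tgfbr3, the TGF-beta co-receptor betaglycan, was at 9.12 and 16.8 CPM in Control, 89.0 and 58.9 CPM uninduced and 63.6 and 38.5 CPM induced, so that the last 2 groups overlapped. Grb10, an adaptor of the insulin receptor and other receptor kinases, had 0 counts in Control replicate 1 and 9.04 CPM in Control replicate 2, then 60.4 and 37.1 CPM uninduced and 22.5 and 22.7 CPM induced.

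Genes known from red cells numbered 4, and all 4 were called higher in uninduced vs Control. Kel (ENSMUSG00000029866, chromosome 6, 41686330 to 41704339, minus strand), the Kell blood group metallopeptidase, was at 0.232 and 1.69 CPM in Control, 21.2 and 67.3 CPM uninduced and 15.1 and 10.9 CPM induced. Pklr (ENSMUSG00000041237, chromosome 3, 89136142 to 89146784, plus strand), the pyruvate kinase of liver and red cells, had 0 counts and 2.26 CPM in Control, 10.98 and 67.0 CPM uninduced and 6.76 and 11.3 CPM induced. Uninduced replicate 2 was far above the rest for both genes, and the induced means were the lowest shares of the uninduced means in the set, at 0.294 for Kel and 0.232 for Pklr. Of the exon bases of Pklr, 22.0% overlap Hcn3 on the opposite strand. Samd14 (ENSMUSG00000047181, chromosome 11, 95009879 to 95026087, plus strand), which promotes Kit signalling in erythroid progenitors, was at 0.541 and 1.32 CPM in Control, 23.3 and 66.3 CPM uninduced and 43.8 and 35.7 CPM induced. Its induced libraries lay between the uninduced ones, its mean ratios to Control were 48.2 and 42.8, and it was the 1 gene of the 4 called in induced vs Control. Stom, the membrane protein stomatin, was at 6.65 and 8.85 CPM, 37.5 and 57.3 CPM, and 26.8 and 22.9 CPM in the same order. In all 4 genes uninduced replicate 2 exceeded replicate 1, and the summed level of the erythroid list outside the set, at 1164 and 2330 CPM, had the same order; its part in these values was not tested.

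The start sites of several of these genes carry AGATAA or TGATAA, the letters bound by factors of the GATA family. These factors direct red cell, mast cell and megakaryocyte programmes, and the genes for GATA1 and GATA2 meet the limits of the set but were left out by name. The part of GATA factors in the levels of the 49 genes was not tested. RefSeq promoter windows on GRCm38.p6, from 250 bases before to 50 bases after a start, were matched by symbol for 37 of the 49 genes. Searched on both strands, AGATAA or TGATAA was found for 10 of the 37 (27.0%), against 18.2% of all 17492 genes with a window. Some genes have several windows, and counted by window the shares were 20.8% of 48 against 15.9% of 21263. The sequences below run 5′ to 3′ in the direction of transcription. They are those of Kel, Pklr, Csf2rb2 and Ccr2, which carry these letters, and of Ccl9, which carries neither. Of the other receptor, signalling and red cell genes just described, Adgrl2 carries TGATAA and is not shown. Stom, Prkar2b and Grb10 have windows with neither motif, and Samd14, Arap3 and Tgfbr3 have no window. Capitals mark either motif, or its reverse complement, which is TTATCT for the first motif and TTATCA for the second. In Ccl9 they mark TTCCCA, which is the reverse complement of the core bound by RBPJ. The windows are chr6:41704276-41704575 (minus strand) for Kel, chr3:89135892-89136191 (plus) for Pklr, chr15:78305672-78305971 (minus) for Csf2rb2, chr9:124101933-124102232 (plus) for Ccr2 and chr11:83578587-83578886 (minus) for Ccl9.
Kel: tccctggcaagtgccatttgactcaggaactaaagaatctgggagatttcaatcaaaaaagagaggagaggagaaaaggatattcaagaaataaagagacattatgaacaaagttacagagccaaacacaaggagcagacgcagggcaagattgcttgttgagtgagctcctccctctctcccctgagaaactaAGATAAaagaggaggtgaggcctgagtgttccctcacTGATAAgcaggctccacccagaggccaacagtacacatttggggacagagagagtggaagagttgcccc
Pklr: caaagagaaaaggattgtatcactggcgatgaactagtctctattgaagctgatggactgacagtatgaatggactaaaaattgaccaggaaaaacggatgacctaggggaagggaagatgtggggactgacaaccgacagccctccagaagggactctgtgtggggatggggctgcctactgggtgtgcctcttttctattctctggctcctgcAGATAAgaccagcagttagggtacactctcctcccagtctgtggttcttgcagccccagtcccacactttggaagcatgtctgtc
Csf2rb2: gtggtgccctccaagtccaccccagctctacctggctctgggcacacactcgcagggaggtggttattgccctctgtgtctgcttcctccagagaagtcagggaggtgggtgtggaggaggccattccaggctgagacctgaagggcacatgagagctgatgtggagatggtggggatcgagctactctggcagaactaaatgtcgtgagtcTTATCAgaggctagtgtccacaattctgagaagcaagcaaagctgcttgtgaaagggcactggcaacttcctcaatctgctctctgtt
Ccr2: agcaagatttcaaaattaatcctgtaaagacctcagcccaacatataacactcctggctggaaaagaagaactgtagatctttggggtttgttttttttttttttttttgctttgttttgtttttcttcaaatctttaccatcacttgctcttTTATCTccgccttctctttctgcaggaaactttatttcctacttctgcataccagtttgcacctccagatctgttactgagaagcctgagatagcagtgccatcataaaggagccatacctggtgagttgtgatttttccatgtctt
Ccl9: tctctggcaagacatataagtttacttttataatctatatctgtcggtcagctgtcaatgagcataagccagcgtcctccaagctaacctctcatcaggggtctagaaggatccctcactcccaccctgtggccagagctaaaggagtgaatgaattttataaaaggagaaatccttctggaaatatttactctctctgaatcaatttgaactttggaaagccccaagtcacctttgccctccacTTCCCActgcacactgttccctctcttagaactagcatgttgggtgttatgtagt

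In Kel the first letter of AGATAA lies 56 bases and that of TGATAA 19 bases before the start. In Pklr AGATAA lies 35 bases before the start of the first of its windows, and the second window holds neither. In Csf2rb2 the match begins 38 bases and in Ccr2 97 bases before the start, both on the opposite strand. The others with such letters were Slc45a3, Adgrl2, Tjp1, Mylk3, Naip6 and Mpeg1. TGGGAA, the core bound by RBPJ, was found for 12 of the 37 genes (32.4%), against 27.4% of all genes, and in Ccl9 lies 5 bases before the start. Of letters bound by other factors, TGTGGT (RUNX) was found for 24.3% against 17.2% of all genes, GAGGAA (PU.1 and other ETS factors) for 29.7% against 30.5%, and TTGCNNAA (C/EBP) for 5.41% against 11.7%. The E-box letters CAGCTG were found for 27.0% against 17.4%, and CAGATG for 16.2% against 16.7%. AGATAA and TGATAA share their last 5 letters and differ in the first, so no stretch counts as both, and a match describes letters, not binding. The median GC content of the member windows was 53.7%, against 56.3% over all windows.

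Innate immune genes numbered 7, of which 6 were called higher in uninduced vs Control and 2 in induced vs Control. The median share of the log2 difference from Control left after induction was 99.5%, against 77.1% over the 48 members with Control counts. The shares ran from 71.0% in Naip2 and 73.5% in Ly6c2 to 115% in Naip6, and the median is the value of Ifi27l2a. The rule used the levels behind these shares, and 3 of the 7 genes are Naip near copies. Nothing is therefore read from the difference between the medians. Naip5 (ENSMUSG00000071203, chromosome 13, 100211739 to 100246323, minus strand) and Naip6 encode inflammasome sensors of bacterial flagellin, and Naip2 a sensor of bacterial secretion system rod protein. Naip5 was at 1.55 and 3.39 CPM in Control, 37.1 and 10.8 CPM uninduced and 29.3 and 36.6 CPM induced. Naip6 was at 0.387 and 2.07 CPM in Control, 16.7 and 9.07 CPM uninduced and 17.2 and 19.4 CPM induced, the 1 member whose induced libraries both exceeded both uninduced ones. Naip2 was at 0.696 and 5.27 CPM in Control, 31.0 and 18.8 CPM uninduced and 11.2 and 15.7 CPM induced. It thus lay lower after induction, unlike the other two. The 3 genes are neighbours, with gaps of 9.646 kb between Naip2 and Naip5 and 34.797 kb between Naip5 and Naip6. They are near copies: 36.8% of the 50-base runs of Naip5, 21.5% of Naip6 and 19.1% of Naip2 also occur in other genes, so how reads were split among them is uncertain.

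Ms4a6c, a membrane protein of the MS4A family expressed in myeloid cells, was at 4.33 and 2.45 CPM in Control, 28.8 and 20.3 CPM uninduced and 22.7 and 36.7 CPM induced. Its exons overlap BE692007 on the opposite strand over 53.1% of their bases, and BE692007 was at 0.784 to 11.2 CPM across the libraries. Without a stated strand setting the reads of the pair cannot be told apart. Mpeg1, the pore-forming perforin-2 of phagocytes, was at 1.78 and 4.14 CPM, 17.3 and 21.2 CPM, and 9.29 and 18.7 CPM in Control, uninduced and induced libraries. Ly6c2, a surface marker of monocytes, was at 2.78 CPM and 0 counts in Control, 8.63 and 21.7 CPM uninduced and 5.77 and 10.3 CPM induced, and 14.4% of its 50-base runs occur in other genes, mainly Ly6c1. Ifi27l2a, an interferon-inducible gene, stayed level, at 11.4 and 11.998 CPM uninduced and 12.9 and 10.2 CPM induced, from 1.16 and 1.51 CPM in Control.

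Vesicle and granule traffic was represented by 8 genes, all called higher in uninduced vs Control and 2 in induced vs Control. Rab44 (ENSMUSG00000064147, chromosome 17, 29114145 to 29148980, plus strand), a large Rab GTPase known from mast cell granule release, was at 7.35 and 10.2 CPM in Control, 203 and 116 CPM uninduced and 86.7 and 142 CPM induced. Its mean ratios to Control were 18.2 uninduced and 13.1 induced. Cd63 (chromosome 10, 128900989 to 128912822, plus strand), a tetraspanin of lysosomes and granules, was at 0.928 and 1.69 CPM in Control, 62.6 and 18.9 CPM uninduced and 12.4 and 13.5 CPM induced, so the mean ratio to Control went from 31.1 to 9.90; 11.02% of its 50-base runs occur in other genes, mainly the pseudogene Cd63-ps. Optn, the autophagy receptor optineurin, was at 7.04 and 12.2 CPM in Control, 73.0 and 156 CPM uninduced and 69.2 and 57.9 CPM induced. Cpne2, a calcium-dependent membrane-binding copine, was at 13.7 and 9.04 CPM, 117 and 44.7 CPM, and 45.0 and 42.4 CPM. The uninduced libraries of Cd63 and Cpne2 were at least 2-fold apart with replicate 1 higher, and those of Optn with replicate 2 higher.

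Zg16, a lectin of secretory granules, had 0 counts in both Control libraries, 13.9 and 5.59 CPM uninduced and 8.75 and 8.81 CPM induced. Against a floor of 3 counts per Control library it was at least 24.5-fold higher uninduced and at least 22.0-fold higher induced, a limit that covers counting error only. Rab27b, which docks granules at the plasma membrane and is in the megakaryocyte list, was at 0.464 and 2.45 CPM in Control, 10.002 and 13.6 CPM uninduced and 14.2 and 13.3 CPM induced. Its induced mean was 1.16 times the uninduced mean. Reps2, an endocytosis adaptor, was at 0.928 and 1.32 CPM, 5.10 and 14.2 CPM, and 3.34 and 4.63 CPM, and Stx11, a SNARE protein of cytotoxic granule release, at 0.309 and 1.69 CPM, 9.22 and 11.1 CPM, and 6.85 and 5.25 CPM. Both genes had induced levels below both uninduced ones.

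Lipid and solute transport was represented by 7 genes, all called higher in uninduced vs Control and 1, Apoe, in induced vs Control. Apoe (ENSMUSG00000002985, chromosome 7, 19696109 to 19699188, minus strand), the lipid carrier apolipoprotein E, was at 9.67 and 24.7 CPM in Control, 259 and 179 CPM uninduced and 153 and 132 CPM induced. It had the highest level per length of the set in every group, at 8.03, 102 and 66.7 CPM per kb of exon. Without it the summed set stood at 179 and 269 CPM in Control, 2071 and 1908 CPM uninduced and 1257 and 1274 CPM induced. Abcb4, a transporter of phosphatidylcholine, was at 11.1 and 15.6 CPM, 108 and 207 CPM, and 89.0 and 62.8 CPM. Atp1b2, a beta subunit of the sodium pump, was at 0.464 and 4.33 CPM, 33.3 and 88.2 CPM, and 38.2 and 18.9 CPM. The induced libraries of Atp1b2 were themselves 2.02-fold apart, the widest induced pair of the set.

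Slc45a3, a solute carrier of the plasma membrane, was at 0.928 CPM and 0 counts in Control, 30.8 and 12.9 CPM uninduced and 10.8 and 18.1 CPM induced. Its mean ratios to Control, 47.1 and 31.1, rest on few Control counts, and 11.99% of its 50-base runs also occur in the overlapping gene Gm29103. Slc22a4, the ergothioneine transporter, had 2 counts in both Control libraries together, 8.04 and 8.88 CPM uninduced and 7.30 and 5.25 CPM induced. Pooled over the libraries of a group, its ratio to Control was 78.6 uninduced (exact 95% interval 21.3 to 655) and 57.2 induced (15.5 to 477), intervals that cover counting error only. Slc25a21, a mitochondrial carrier, had 0 counts and 1.51 CPM in Control, 6.86 and 28.1 CPM uninduced and 9.20 and 6.32 CPM induced. Ank, which exports pyrophosphate and ATP, was at 5.72 and 1.88 CPM, 33.3 and 18.5 CPM, and 12.1 and 19.4 CPM.

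Nuclear proteins numbered 5, all called higher in uninduced vs Control and none in induced vs Control, although by DESeq2 3 of the 5 were, and each of the 5 had an unadjusted edgeR p under 0.05. Dach1, a transcriptional corepressor, was at 2.24 and 14.1 CPM in Control, 121 and 43.4 CPM uninduced and 69.97 and 72.4 CPM induced. The Control libraries of Dach1 were far apart while its induced libraries were nearly equal. Arid3a, a transcription factor with an AT-rich interaction domain, was at 7.42 and 10.4 CPM, 39.2 and 46.1 CPM, and 23.2 and 21.4 CPM. Hif3a, of the hypoxia-inducible factor family, was at 3.56 and 3.58 CPM in Control, 13.3 and 10.8 CPM uninduced and 13.2 and 10.4 CPM induced, so that its uninduced and induced libraries overlapped throughout. Dpf3, a subunit of the BAF chromatin remodelling complex, was at 10.002 and 18.5 CPM uninduced and 11.9 and 7.83 CPM induced, and Dclre1a, a nuclease that repairs crosslinked DNA, at 26.7 and 20.97 CPM uninduced and 12.7 and 11.8 CPM induced.

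Adhesion, cytoskeleton and matrix genes numbered 8, with 7 called higher in uninduced vs Control and 2, Tjp1 and Pcdh7, in induced vs Control. Tjp1, the tight junction scaffold ZO-1, was at 4.48 and 6.40 CPM in Control, 61.0 and 36.4 CPM uninduced and 26.8 and 43.2 CPM induced. Pcdh7, a protocadherin, was at 2.24 and 3.58 CPM, 44.5 and 23.9 CPM, and 45.1 and 25.7 CPM, with the same spread before and after induction. Krt18, an epithelial keratin, was at 2.32 and 2.64 CPM, 13.1 and 15.7 CPM, and 14.2 and 16.8 CPM. The uninduced and induced pairs overlapped in all 3 genes. Mmp14, a membrane-anchored matrix metalloproteinase, had 0 counts and 4.52 CPM in Control, 22.6 and 29.6 CPM uninduced and 11.7 and 11.4 CPM induced. Mylk3, a myosin light chain kinase known from heart muscle, was at 0.0773 and 1.13 CPM in Control, 5.10 and 19.7 CPM uninduced and 6.94 and 5.43 CPM induced. Anxa9, an annexin, was at 15.5 and 14.1 CPM uninduced and 13.2 and 11.9 CPM induced, and the other members, Nhsl2 and Pstpip2, were between 5.77 and 23.9 CPM uninduced and between 4.36 and 9.16 CPM induced. The remaining 2 members belong to the endoplasmic reticulum. Asph, an aspartyl hydroxylase, was at 12.3 and 16.2 CPM, 102 and 87.8 CPM, and 53.7 and 54.6 CPM, and Fkbp9, a prolyl isomerase, at 0.464 and 1.51 CPM, 17.1 and 6.41 CPM, and 4.33 and 5.16 CPM.

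The members differed in how much of the difference from Control was left after induction. On the log2 scale of group means, the share left ranged from 57.0% in Csf2rb2 to 115% in Naip6, with a median of 77.1%. It was 90% or more in 12 genes, among them Dach1, Samd14, Pcdh7, Ms4a6c, Naip5, Krt18, Rab27b, Ifi27l2a and Hif3a. It was under 60% in 4 genes, Csf2rb2, Arid3a, Pklr and Reps2. By role the medians were 99.5% for innate immune genes, 81.8% for nuclear proteins, 81.0% for adhesion, cytoskeleton and matrix genes, 77.2% for receptors, 76.7% for transport, 76.2% for vesicle traffic, 66.9% for the endoplasmic reticulum and 66.1% for red cell genes. The rule set a lower limit on the induced level, so genes with low shares were left out of the set. The roles hold few genes each, with 2 in the endoplasmic reticulum, and the order of their medians was not tested. The induced mean exceeded the uninduced mean in 6 genes: Naip6, Naip5, Ms4a6c, Rab27b, Krt18 and Pcdh7.

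**Figure D2:**
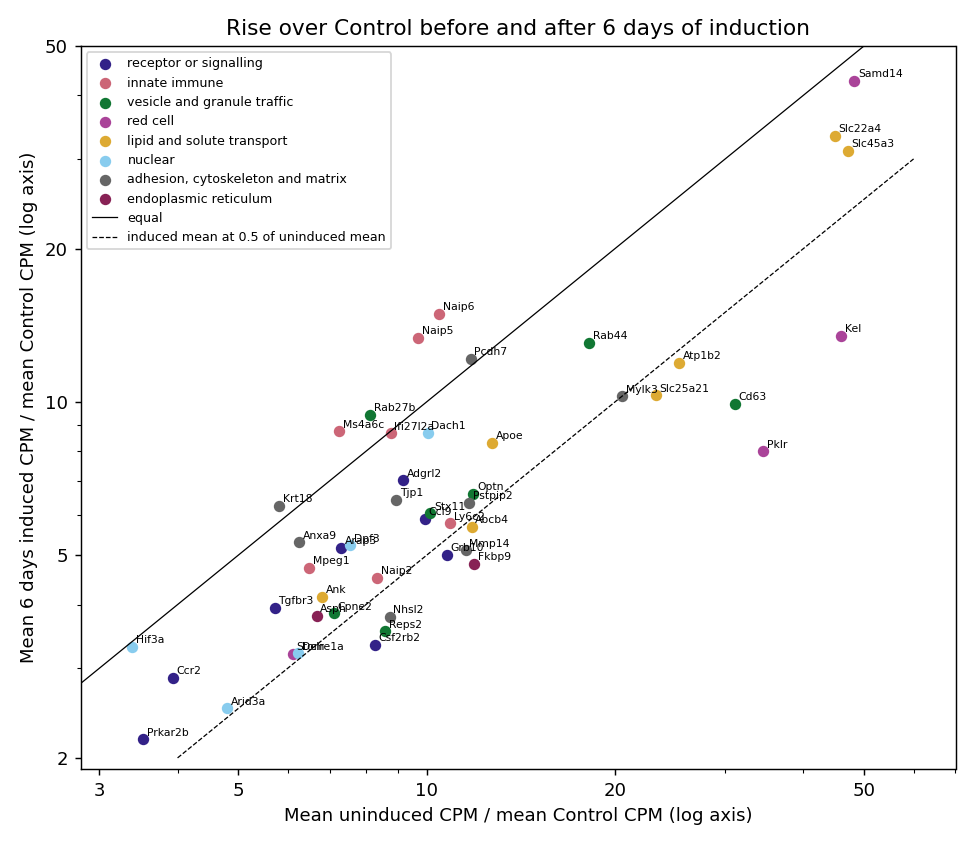
Mean uninduced CPM over mean Control CPM (x axis) against mean induced CPM over mean Control CPM (y axis) for the 48 members with Control counts, both axes log, colour by role. The solid line marks equal ratios, with 6 genes above it, and Kel, Pklr and Cd63 lie furthest below the dashed line at 0.5 of the uninduced mean.

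The uninduced libraries disagreed more than the induced ones. Mitochondrially encoded genes took 18.2% of the counts in uninduced replicate 2, of which nearly all was ribosomal RNA (16.5% of the counts). They took 10.2% to 13.6% in the other libraries. With totals that leave these genes out, the rule took 50 genes, 47 of them shared with the set. On those totals 43 members had an induced mean below the uninduced mean, the same number as on full totals. The part of mitochondrially encoded genes in the differences between the uninduced libraries was not tested. The induced libraries were within 2-fold of each other in 47 members and the uninduced libraries in 30. Uninduced replicate 1 was at least 2-fold above replicate 2 in 10 members (Dach1, Cpne2, Ccl9, Cd63, Naip5, Csf2rb2, Slc45a3, Fkbp9, Zg16 and Pstpip2). Replicate 2 was at least 2-fold above replicate 1 in 9 (Optn, Atp1b2, Samd14, Kel, Pklr, Slc25a21, Ly6c2, Mylk3 and Reps2). In the induced group 7 of the 10 were higher in replicate 2 and 6 of the 9 were higher in replicate 1. With TMM-scaled totals only Dach1, Ccl9, Cd63 and Naip5 of the 10 kept a 2-fold difference, while Abcb4, Stom and Dpf3 joined the 9. Over all members replicate 1 was the higher uninduced library in 28 and replicate 2 in 21, a split that turned to 22 and 27 with totals scaled by TMM. Control replicate 2 exceeded Control replicate 1 in 41 members, 39 with TMM-scaled totals, and 6 members had 0 counts in Control replicate 1 although it was the deepest library. Shares over all genes were not counted for these splits between replicates. The splits may therefore be those of the libraries as a whole, and nothing is read from them about the members.

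**Figure D3:**
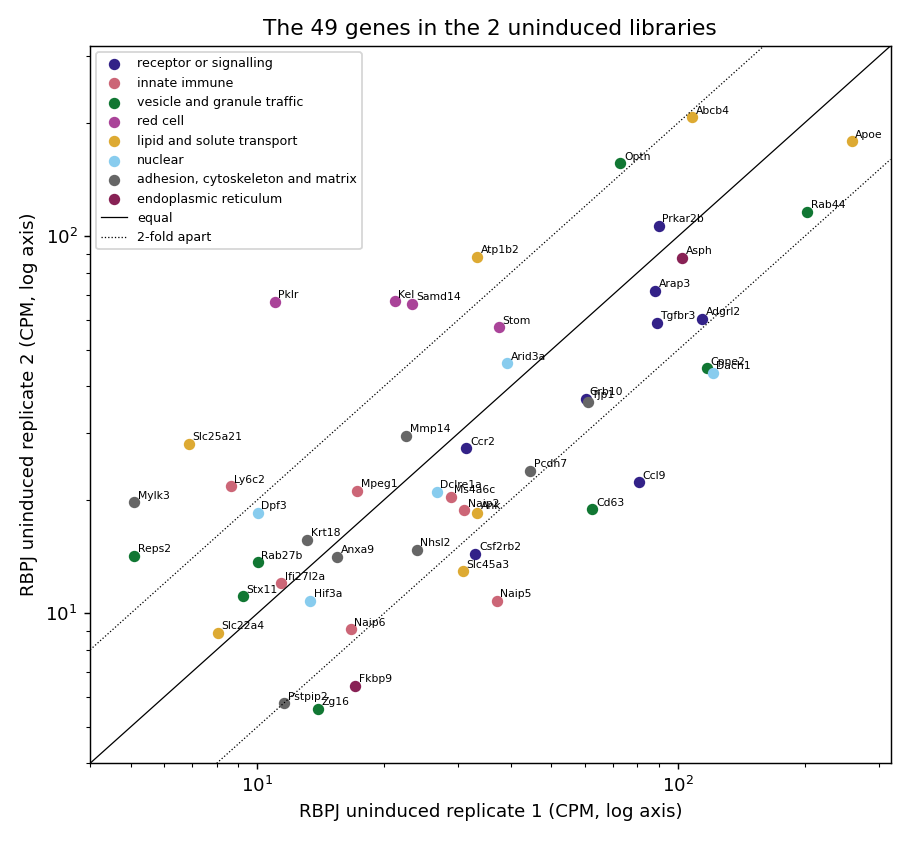
CPM of the 49 members in uninduced replicate 1 (x axis) and replicate 2 (y axis), both axes log, colour by role; dotted lines mark a 2-fold difference. The 9 genes above the upper line include Kel, Pklr and Samd14, and the 10 below the lower line include Cd63, Ccl9 and Naip5.

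Markers of other cell types moved between the same libraries. Outside the set, the erythroid list summed to 254 and 261 CPM in Control, 1164 and 2330 CPM uninduced and 711 and 575 CPM induced. The granulocyte and monocyte list stood at 755 and 735, 5276 and 3032, and 1002 and 1824 summed CPM. Mpo alone held 502 and 448, 4187 and 2233, and 617 and 1242 CPM of these sums. The mast cell and basophil list, which holds Kit, stood at 897 and 798, 2624 and 1231, and 1467 and 1340. The megakaryocyte and platelet list stood at 316 and 321, 700 and 537, and 537 and 550, with Ppbp at 0 in all 6 libraries. The granulocyte and mast cell sums were higher in uninduced replicate 1, the erythroid sum in replicate 2. In the induced group the erythroid sum was higher in replicate 1 and the granulocyte sum in replicate 2. The B lineage list stood at 845 CPM in uninduced replicate 2 and 323 CPM in Control replicate 2, against 31.2 to 79.7 CPM in the other libraries. The T lineage list stood at 783 and 1474 CPM in Control, 71.4 and 95.3 CPM uninduced and 461 and 493 CPM induced. Macrophage markers summed to at most 29.6 CPM, and no marker of these lists other than Ppbp was at 0 in all 6 libraries. The part of these cell types in the levels of the 49 genes was not tested.

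**Figure D4:**
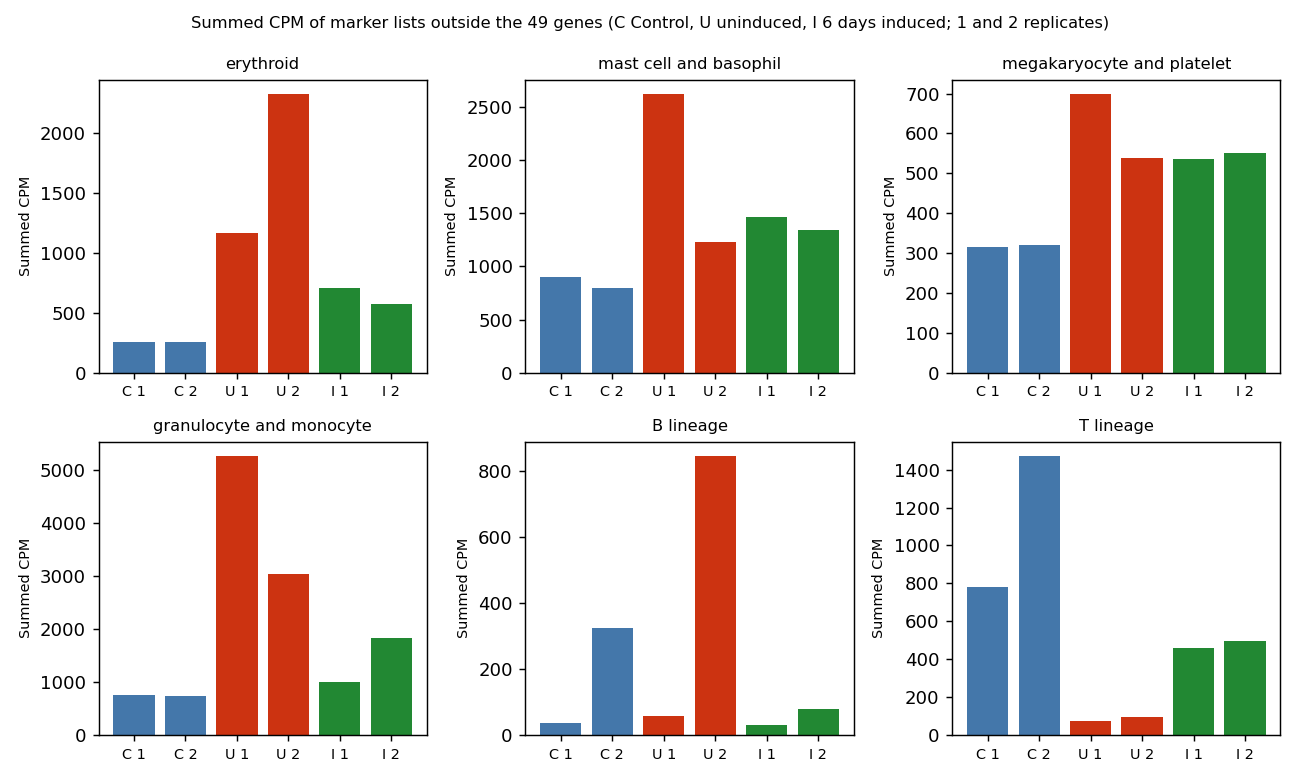
Summed CPM of 6 marker lists, without the 49 members, in each library (bars; C Control, U uninduced, I 6 days induced; 1 and 2 are replicates; each panel has its own axis from 0). The erythroid sum is highest in uninduced replicate 2 at 2330 CPM and the granulocyte and monocyte sum in uninduced replicate 1 at 5276 CPM, of which Mpo alone held 4187 CPM.

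The related lists contain few of the 49 genes: Rab27b, Ly6c2 and Csf2rb2. Over all genes tested, 2.49% were called higher and 2.93% lower in uninduced vs Control. The share called higher was 0.187% in induced vs Control and 1.55% in induced vs uninduced. Among the other list genes, 14 of 24 erythroid genes tested were called higher in uninduced vs Control, including Klf1, Epor, Tfrc and Car1. In induced vs Control 3 were (Tfr2, Car1 and Mfsd2b), all of them left out of the set by name. Of 22 mast cell and basophil genes 9 were called higher in uninduced vs Control, including Cpa3, Hdc and Gata2. In induced vs Control 3 were (Ms4a2, Il1rl1 and Gata2), again all left out of the set by name. Of 22 granulocyte and monocyte genes 9 were higher in uninduced vs Control, including Mpo, Elane and Cebpa, and edgeR called 0 in induced vs Control (9 at an unadjusted p of 0.05, 5 by DESeq2). Of 16 megakaryocyte genes 4 were higher, including Pf4 and Itga2b, and edgeR called 0 in induced vs Control (7 at an unadjusted p of 0.05, 3 by DESeq2). Of the 26 other cytokine receptor and STAT genes, Csf2rb and Stat5a were higher in uninduced vs Control and 7 were lower, Il6st, Il4ra, Il2rg, Stat3, Socs3, Cish and Pim1. Of 15 T lineage genes 6 were lower in uninduced vs Control, Tcf7, Gata3, Tox, Lck, Cd6 and Cd5, and all of these but Cd5 were higher in induced vs uninduced. In induced vs Control edgeR called 0 T lineage genes lower (8 at an unadjusted p of 0.05, 3 by DESeq2). Several of these list genes had entered the choice of names to leave out, so the counts are no independent evidence of direction.

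Genes lay close to the ratio limits of the rule on both sides. At the floor of 5 CPM, Mylk3 and Reps2 lay just inside with a lower uninduced level of 5.10 CPM each, while the nearest genes failing that limit alone were Phf11b at 3.53 CPM and Gdf3 at 1.92 CPM. At 3 times Control, Hif3a (3.02) and Ccl9 (3.03) lay inside and Fer (2.997) and Zfpm1 (2.83) outside. At 2 times Control for the induced libraries, Arid3a (2.06) and Ly6c2 (2.07) lay inside and Fcgr3 (1.996) and Shank3 (1.97) outside. At 0.5 of the lower uninduced level, Mmp14 (0.505) and Kel (0.512) lay inside and Tstd3 (0.489) and Tent5a (0.487) outside. Without Control replicate 2 the rule took 118 genes, without Control replicate 1 77 and without induced replicate 2 74. Besides the 49, 4 genes that are non-coding or without a match in the annotation met the limits. Of these, Gm15915, an antisense transcript, was at 0.387 and 0.188 CPM in Control, 37.9 and 41.1 CPM uninduced and 52.0 and 28.6 CPM induced.

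The genes are spread over 19 chromosomes with at most 5 on any of them, and only the Naip genes lie within 100 kb of each other. Their exons span 463 bases (Ifi27l2a) to 16952 bases (Nhsl2), with a median of 4283 bases against 4522 bases over the 14143 protein-coding genes tested. Per kb of exon, the uninduced means ran from 1.11 CPM in Rab27b, 1.14 CPM in Nhsl2 and 1.16 CPM in Reps2 up to 30.5 CPM in Optn, 31.5 CPM in Rab44 and 102 CPM in Apoe. After induction Apoe (66.7 CPM per kb), Ifi27l2a (25.0) and Rab44 (22.6) were the highest. Ifi27l2a, of low CPM, is thus among the highest of the set once its short length is taken into account.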

How the data were processed

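Each of the 6 libraries has 1 file of whole-number read counts per Ensembl gene, deposited by the authors without normalization. Per the submitters' processing notes, HISAT2, StringTie, HTSeq and mm10 were used. Their roles, the annotation release and the strand setting of the counting are not stated there, so opposite-strand overlaps cannot be told apart. Names, types and coordinates came from GENCODE M21 on GRCm38 (47310 of 47729 IDs matched). No columns of other samples were present (0).

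CPM are counts over the file total times 1000000. Counts were fitted in R 4.3.3 with edgeR 4.0.16: filterByExpr (minimum count 10, minimum total 15) left 18174 genes, TMM factors were 0.824 to 1.13, and 1 quasi-likelihood fit of the 3 groups had 3 residual degrees of freedom. P-values were adjusted by Benjamini-Hochberg across the genes of a contrast, with a threshold of 0.05. The fit was tested on simulated data. Alternatives were DESeq2 1.42.0, other size factors and filters, fits of 4 libraries, the replicate number as a block, leaving out each library, and other limits of the rule.

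The members, the 13 gene lists and the tests were chosen with earlier results of these data known. Genes were named by a rule: members in a list, those with the highest level, rise, retention, loss or spread between uninduced libraries, those at 0 in Control or next to a limit, and the list genes with the smallest p; the remaining members were added so that each role is complete, as were Csf2rb, BE692007 and Gm15915, all after their values were seen. Replicates differed by more than sampling noise, so none was counted as a duplicate.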

Additional observations from a re-analysis of the deposited data

How the results depend on the processing

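With totals scaled by TMM the rule took 54 genes, 41 of them shared with the 49. The number of members was 31 with induced libraries at least 3 times Control, 23 with at least 0.75 of the lower uninduced level kept, and 42 to 118 when 1 library was left out. Members called higher in uninduced vs Control numbered 19 in the fit of the 4 libraries compared and 30 to 49 with 1 library left out. Members called higher in induced vs Control numbered 32 by DESeq2, 43 with no low-count filter, 25 in the fit of 4 libraries and 7 to 40 with 1 library left out. Members called lower in induced vs uninduced numbered 2 by DESeq2, 6 with no filter and 0 to 9 with 1 library left out. By the form of the rule, stricter limits can only shrink the set, and leaving out a Control or induced library can only enlarge it. The cause of the other shifts was not tested. Over all genes, DESeq2 called 179 higher in induced vs Control against 34 by edgeR, and 814 against 452 in uninduced vs Control; across all alternatives these counts ran from 20 to 266 and from 93 to 1007. In the 150 bases nearest the start, and beside the share of all genes there, AGATAA or TGATAA was found for 6 of 37 members (7.73% of all genes), TGATAA for 3 (3.60%), TGGGAA for 6 (14.2%), TGTGGT for 4 (9.03%), TTGCNNAA for 0 (5.01%), CAGATG for 2 (8.19%), AGATAA for 4 (4.54%), CAGCTG for 9 (10.5%) and GAGGAA for 9 (17.5%). The labels do not say whether the replicate numbers pair the samples. Deviations of same-numbered libraries correlated at -0.0407, 0.0253 and 0.0107 over 18174 genes. These values show no shared deviation, but with 2 libraries a group they cannot decide whether samples were paired. With the number as a block 27 members were called higher in induced vs Control and 47 in uninduced vs Control. No member changed direction in uninduced vs Control or induced vs Control under any alternative run. Alternatives for the gene lists were added after seeing the data. With 2 libraries a group, depth and replication limit every count given.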
